A study of Mus musculus with 283 samples.

Results

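The keratin genes were read in mouse mammary tumours and normal mammary glands profiled by mRNA sequencing, and in cultured tumour lines. Members were all genes whose symbol is Krt followed by a number and at most 1 letter. They came to 51 of the 45657 genes kept in the tumour and gland table, and the same 51 were found among 47453 genes in the table of cultured lines. The study looked for tumour features that predict the response of mouse triple-negative breast cancers to checkpoint antibodies. Values are the authors' upper-quartile normalised signal, given here as log2(signal + 1) and called log2 signal. A value of 0 means that a gene was listed at 0.

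There were 264 tumour and gland libraries from 263 samples in 62 groups of model, time and treatment, and 6 libraries of cultured lines. T11, T11-UV and T11-Apobec are transplanted lines, and BALB/c is the labelled strain of T11-UV and T11-Apobec, while none is labelled for T11 itself. KPB25L, KPB25L-UV and KPB25L-Apobec are transplanted lines of labelled strain FVB. The labels name the UV and Apobec derivatives without saying how each was made. The KPB-Primary, KPB-1A and KPB-1B tumours come from floxed Brca1 and p53 alleles deleted by Cre under the keratin 14 promoter, which directs the deletion to basal keratin-expressing cells. The p53 models (p53-2225L, p53-2336R, p53-2153F, p53-2224L, p53-9263-3 and single tumours) are p53-null BALB/c transplants where a strain is labelled. C3-TAG and PyMT carry viral antigen transgenes, and ILC-Pik3Ca/Cdh1Null tumours (ILC below) carry Pik3ca and Cdh1 alleles; no strain was labelled for any of these. Mice of T11, T11-UV, T11-Apobec, KPB25L, KPB25L-UV, p53-2225L and p53-2336R received anti-PD1 with anti-CTLA4 or no treatment. Their tumours were taken at 3 days, at 7 days for the T11 and KPB25L lines, and at an end stage. The 47 untreated 3-day libraries are headed as pretreatment in the table. All other tumours were untreated. The reference tissue was the gland of 5 BALB/c and 4 FVB mice, 4 of which are labelled as pools. The labels do not say that samples of a group came from separate litters or transplants, so p-values measure only the spread between samples. That spread was taken over all fitted groups together, except where another is named.

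Keratins are the intermediate filament proteins of epithelial cells, built from an acidic type I and a basic type II chain. In the mammary gland, luminal cells carry the simple-epithelial pair Krt8 and Krt18 with Krt7 and Krt19, and basal or myoepithelial cells carry Krt5 and Krt14. Krt6a, Krt6b, Krt16 and Krt17 are induced in wounded or rapidly dividing epithelium, Krt1 and Krt10 mark the upper layers of skin, and Krt4 and Krt13 those of the oesophagus. Other members build the inner root sheath and the shaft of hair.

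The 51 genes were sorted into 6 simple, 7 basal or stress, 12 suprabasal, 9 root sheath and 14 hair shaft keratins and 3 others. There were 28 type I and 23 type II genes. In GRCm38 the type II genes lie between positions 101347444 and 102004482 of chromosome 15, and 27 type I genes lie between 99232761 and 100269871 of chromosome 11. Krt18 (102028180 to 102032027) is the type I gene that stands on chromosome 15 instead, beside its partner Krt8 (101996698 to 102004482). Promoter sequences from RefSeq (GRCm38.p6) are shown for the luminal pair, the basal pair and 3 root sheath neighbours, since the results turn on these 3 groups. Each run covers the 120 bases before the start that RefSeq annotates, on the gene's own strand, and capitals mark the motif TATAAA. The gene positions above are from GENCODE, whose longer genes hold all 120 bases of the Krt8 and Krt14 windows and 36 of the Krt18 window.
Krt8, chr15:102004343-102004462, minus strand: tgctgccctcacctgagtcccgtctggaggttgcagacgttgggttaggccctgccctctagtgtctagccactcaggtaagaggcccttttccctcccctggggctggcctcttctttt
Krt18, chr15:102028096-102028215, plus strand: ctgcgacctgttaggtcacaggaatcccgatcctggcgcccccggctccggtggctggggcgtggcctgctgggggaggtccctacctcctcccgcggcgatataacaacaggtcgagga
Krt5, chr15:101712906-101713025, minus strand: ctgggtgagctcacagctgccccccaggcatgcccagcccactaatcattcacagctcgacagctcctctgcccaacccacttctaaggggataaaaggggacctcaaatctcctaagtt
Krt14, chr11:100206031-100206150, minus strand: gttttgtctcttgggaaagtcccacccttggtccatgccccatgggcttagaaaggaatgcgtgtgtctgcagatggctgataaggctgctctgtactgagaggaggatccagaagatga
Krt25, chr11:99322952-99323071, minus strand: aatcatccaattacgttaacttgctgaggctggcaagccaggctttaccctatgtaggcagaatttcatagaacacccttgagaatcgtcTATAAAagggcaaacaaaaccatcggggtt
Krt26, chr11:99337966-99338085, minus strand: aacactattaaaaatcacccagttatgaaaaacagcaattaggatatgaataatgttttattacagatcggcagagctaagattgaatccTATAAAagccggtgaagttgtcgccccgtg
Krt27, chr11:99351119-99351238, minus strand: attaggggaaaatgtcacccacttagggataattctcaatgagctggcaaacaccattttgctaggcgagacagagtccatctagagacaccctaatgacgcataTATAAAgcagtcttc

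The motif began 30 bases before the RefSeq start in Krt25 and Krt26 and 15 bases before it in Krt27. These letters were not in the other 4 windows, which says nothing of bases before another start of those genes. In the same stretch of bases before the start, TATAAA stood on the gene's strand in 15 of 36 promoters of 35 keratins (41.7%). Of all 32851 promoters, 1375 (4.19%) held it there. On the other strand it stood in 0 of 36 keratin promoters, against 885 of all promoters (2.69%). A match is a run of letters and does not show use of the site.

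Taking the most frequent small value of a library as 1 read, libraries held an estimated 3.45 to 149.0 megareads (median 51.3) in the tumour and gland table and 36.1 to 76.6 megareads in the cultures. Some libraries stood apart. Among 27 KPB25L-UV libraries, 6 were high in 50 T11-high genes and are said below to carry T11 transcripts. Their mean over these genes was 6.44 to 8.84, against 1.42 to 4.22 in the other 21, and 7.38 to 9.79 in the 74 T11-line samples. The genes were the non-keratin genes with the widest gap between untreated 3-day T11 and KPB25L tumours. The origin of these transcripts was not tested. The 6 libraries were untreated 3-day tumour 3, untreated 7-day tumours 3 and 4, treated 7-day tumours 1 and 5, and untreated end-stage tumour 2. Untreated 3-day tumour 3 (6.44) and treated 7-day tumours 1 (6.86) and 5 (7.25) were below the T11-line range. Another 5 libraries carried hair keratin-associated protein transcripts, with a mean over 56 Krtap genes of 4.56 to 8.58, against 0 to 3.42 in the other 258. These were KPB-Primary tumour 8, treated KPB25L-UV 3-day tumour 2 and 7-day tumour 3, KPB-1A 3-day tumour 2 and p53-2224L 3-day tumour 3. In the labels 4 mouse numbers are given both to T11-UV 7-day and to KPB25L-UV end-stage libraries. BALB/c gland 1 was low in epithelial transcripts. The table gives bulk tissue, so fewer cells of a type and less RNA per cell cannot be told apart.

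Keratin mRNA made up a small share of the signal and its make-up differed between models. Of the 51 keratins, 41 reached a log2 signal of 10 in at least 1 sample, and 50 exceeded 5; the exception, the corneal keratin Krt12, had a highest value of 4.09. A further split was in spread: 22 keratins were at 0 in most of the samples, among them 12 of the 14 hair shaft genes. All keratins together held a median of 0.306% of the signal in untreated end-stage KPB25L tumours, 0.4% in p53-2225L, 0.262% in ILC, 0.223% in PyMT, 0.221% in KPB-Primary and 0.219% in C3-TAG. Medians were 0.136% in BALB/c and 0.056% in FVB glands. In the T11 lines the group medians ran between 0.00135% and 0.0128%, below those of both glands.

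**Figure D1:**
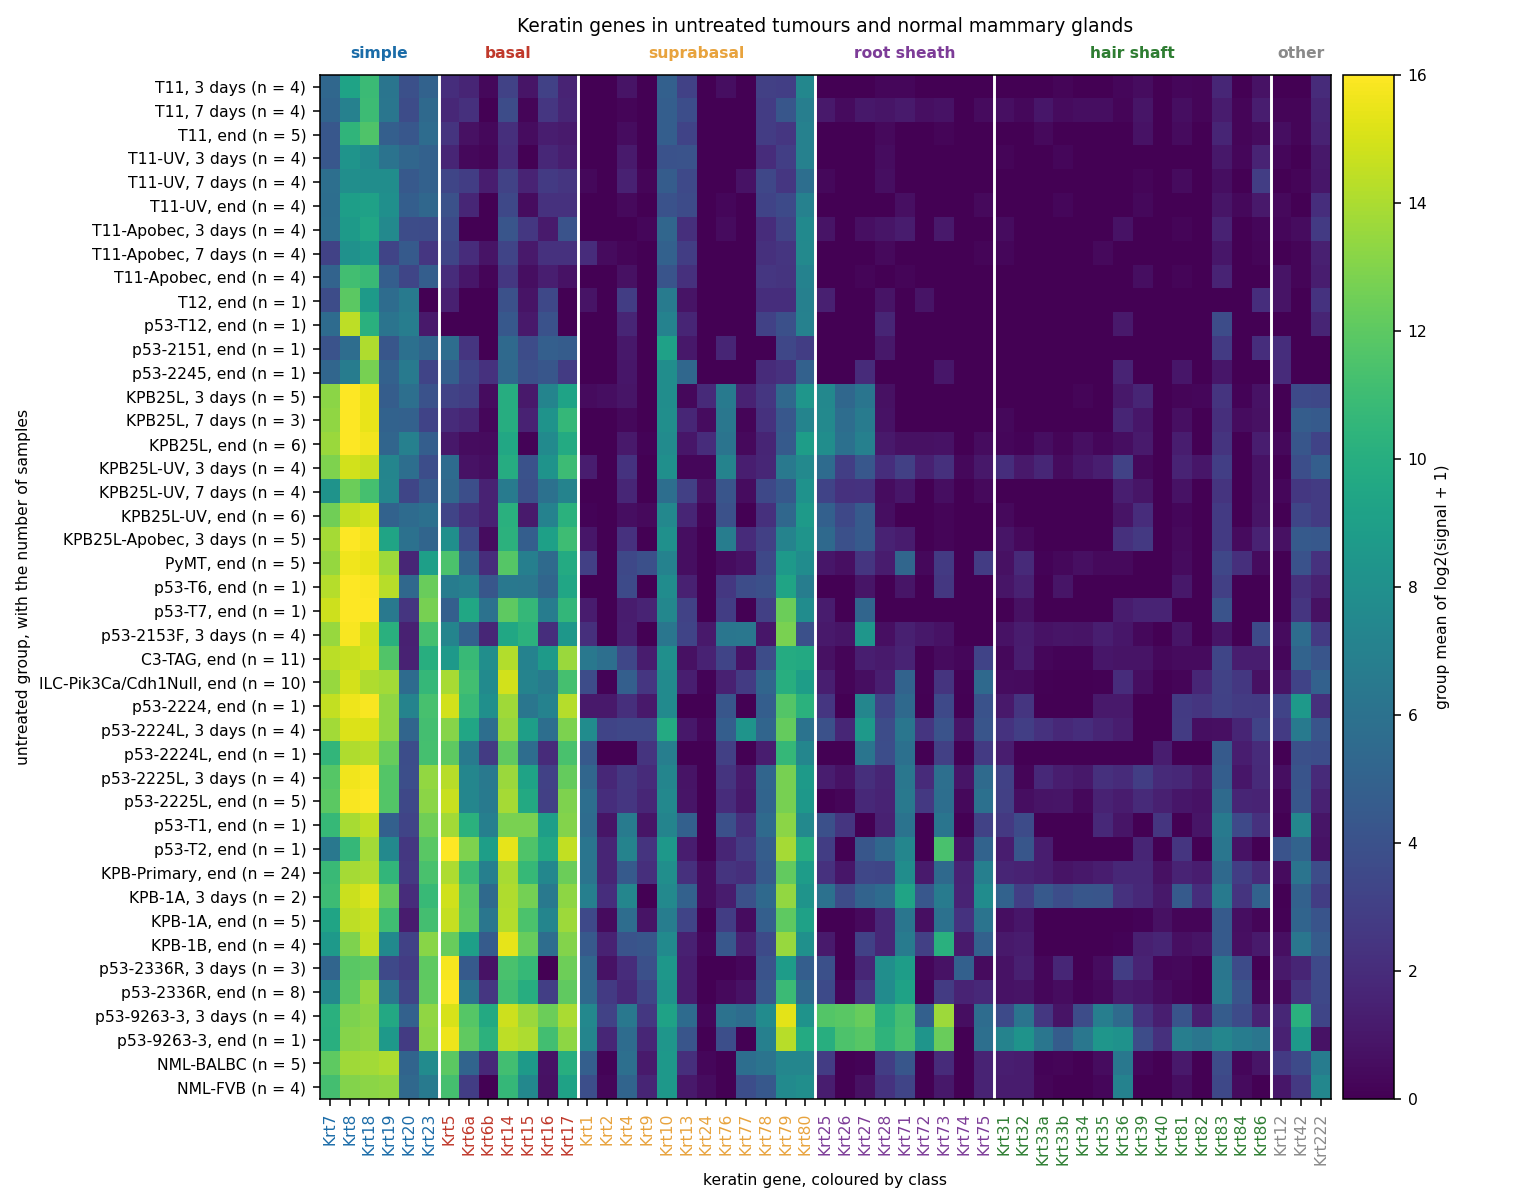
Mean log2(signal + 1) of each keratin (columns, ordered by class) in each untreated group (rows, T11 lines at the top and glands at the bottom). T11 lines were low across classes, KPB25L lines were high in simple keratins and in Krt25 to Krt27, and the p53-9263-3 rows were high in root sheath keratins.

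By signal per kilobase of transcript, simple keratins took the larger share in most models. They held 87.2%, 97.7% and 99.2% (lowest, median and highest sample) of keratin signal in untreated end-stage KPB25L tumours, 94.7%, 97.8% and 98.7% in T11, and 88.2%, 93.4% and 96.9% in PyMT. Basal keratins held 34.4%, 40.1% and 46.1% in ILC, 6.97%, 25.4% and 66.6% in C3-TAG, and 4.59%, 39.7% and 87.1% in KPB-Primary. ILC tumours thus kept a narrow mixture, while KPB-Primary tumours covered nearly the whole range between luminal and basal. Basal keratins held 5.49%, 12.8% and 19.9% in BALB/c and 11.3%, 11.9% and 13.1% in FVB glands.

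The p53 models did not share 1 pattern. Basal keratins took 50.8%, 64.5% and 84.4% in untreated end-stage p53-2336R tumours but 19%, 23.5% and 25.8% in p53-2225L, where simple keratins had a median of 73.2%. In p53-9263-3 at 3 days root sheath keratins took 5.73%, 15.5% and 25.3%, beside medians of 49.9% for basal, 17.5% for suprabasal and 15.8% for simple keratins. On the scale of mean log2 signal per kilobase, the leading genes were Krt18 (13.49), Krt14 (13.15), Krt5 (12.92) and Krt8 (12.9) in KPB-Primary and Krt14 (14.16), Krt8 (13.97) and Krt18 (13.58) in ILC. In C3-TAG they were Krt18 (14.44), Krt8 (13.67) and Krt14 (13.39).

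**Figure D2:**
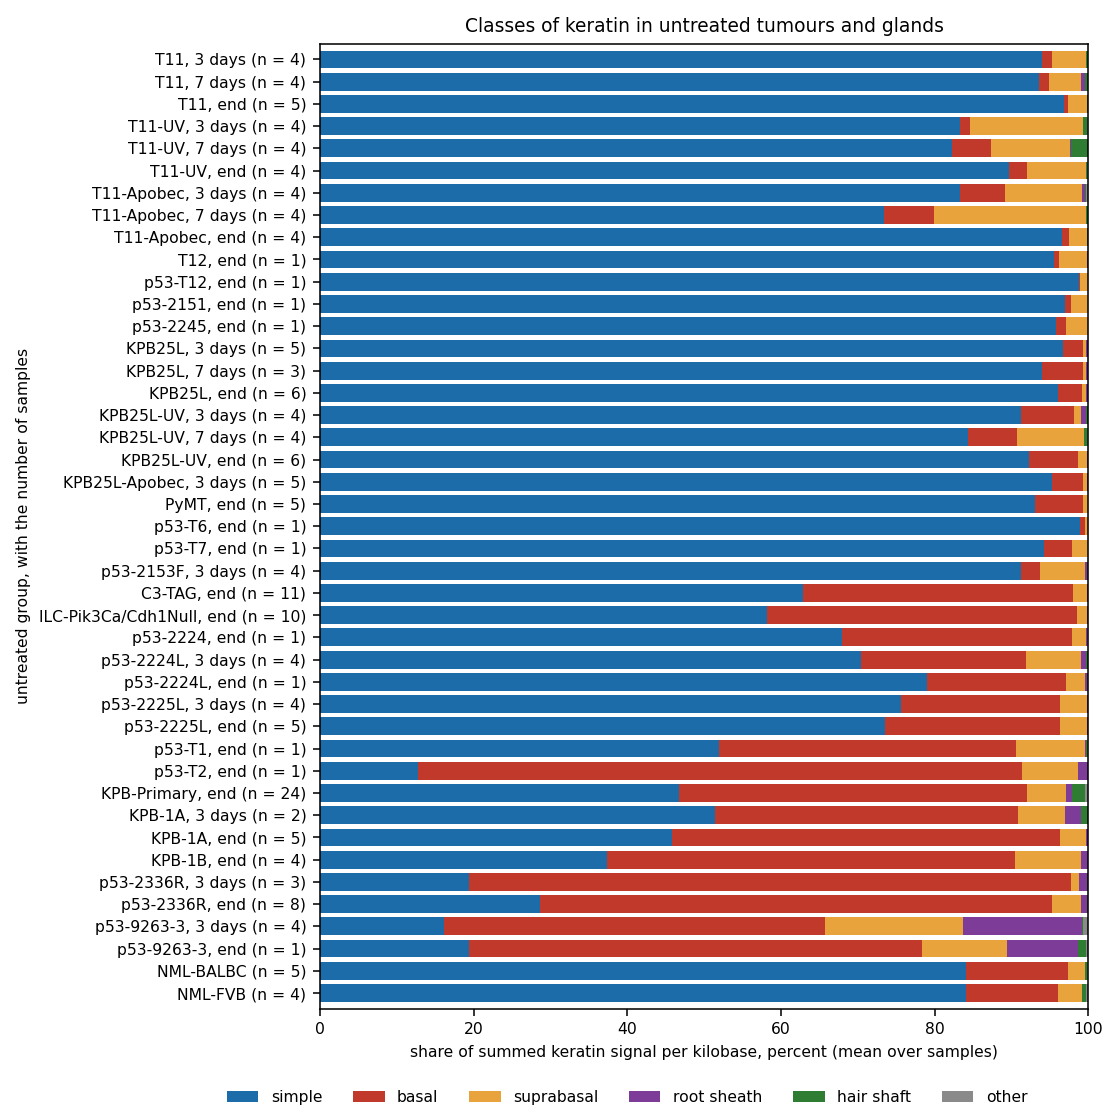
Mean share of summed keratin signal per kilobase (percent) held by each keratin class in untreated groups, as stacked bars. Simple keratins fill most of the bar in KPB25L, T11 and PyMT tumours, and basal keratins in p53-2336R.

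Partners of a filament were not always balanced. Krt8 minus Krt18 in log2 signal per kilobase had medians of -0.01 in untreated 3-day KPB25L tumours and -0.23 in PyMT, but -2.33 in KPB-1B and -4.4 in untreated 7-day T11 tumours. Krt5 minus Krt14 was 2.57, 4.7 and 6.74 (lowest, median, highest) in untreated end-stage p53-2336R tumours and -8.24, -6.29 and -3.04 in C3-TAG. Krt14 thus exceeded Krt5 per kilobase in every C3-TAG tumour, and Krt5 exceeded Krt14 in every untreated end-stage p53-2336R tumour.

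Where a strain was labelled for the model or, for T11, for its derivatives, tumours were set against the gland of that strain. FVB glands were used for KPB-Primary and also for C3-TAG and PyMT. No strain was labelled for C3-TAG or PyMT, so their strain may differ from that of the glands, and its part was not tested. The fit used limma over 252 samples of 51 groups and 22016 genes, called a gene at a Benjamini-Hochberg adjusted p of 0.05, and tested 36 of the 51 keratins. The other 15 keratins were too low: Krt2, Krt12, Krt24, Krt72, Krt74 and the hair shaft genes Krt31, Krt32, Krt33a, Krt33b, Krt34, Krt35, Krt39, Krt40, Krt81 and Krt82. A keratin that passed only through the groups where it is high had to differ somewhere, so counts are read only beside those of all genes. C3-TAG, PyMT and KPB-Primary share the FVB glands, and p53-2225L, p53-2336R and T11 share the BALB/c glands. Flow cell was no term of these comparisons, and its part was not tested. Adipocyte markers had medians of 7.69 in C3-TAG, 5.86 in PyMT, 6.8 in KPB-Primary, 3.36 in p53-2225L, 4.94 in p53-2336R and 5.5 in T11 tumours, against 16.76 in FVB and 16.44 in BALB/c glands. Their part in the differences below was not tested.

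C3-TAG tumours had more basal and stress keratin mRNA than FVB glands. Of the 36 keratins, 13 (36.1%) were higher, against 34.1% of all genes, and 4 (11.1%) were lower, against 27.7%. The count of higher keratins was near that background. The median keratin difference was 0.43 on the log2 scale and the median of all genes 0.15. Among basal keratins 5 of 7 were higher and none lower, among simple keratins 3 of 6 higher and 1 lower, and of 7 root sheath keratins none was called.

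Stress keratins led the C3-TAG list. Krt16, a partner of Krt6a in wounded skin, had 4.25, 9.15 and 10.87 log2 signal (lowest, median, highest of 11) in C3-TAG tumours, against 0, 0, 2.04 and 0.82 in FVB glands (difference 8.02 ± 1.08 SE, limma adjusted p = 2.13e-11). Krt6a had 2.91, 10.80 and 14.61 in C3-TAG tumours, against 1.88, 1.25, 6.04 and 2.48 in FVB glands (difference 7.87 ± 1.18, adjusted p = 1.63e-09). The Krt16 ranges did not overlap and the Krt6a ranges did. Krt17 had 11.59, 13.85 and 15.27 in C3-TAG tumours, against 9.07, 9.0, 10.01 and 8.88 in FVB glands (difference 4.38 ± 1.05, adjusted p = 0.000127). Krt14 had 11.30, 14.32 and 15.49 in C3-TAG tumours, against 10.64, 10.40, 11.07 and 10.50 in FVB glands (difference 3.5 ± 1.11, adjusted p = 0.00381). Every C3-TAG tumour was above every FVB gland for both. Its partner Krt5 moved apart from it: C3-TAG tumours had 3.27, 8.50 and 12.83, a range that includes all FVB glands at 11.11, 10.95, 11.78 and 11.15, and Krt5 was not called. Krt7 (difference 3.11 ± 1.05, adjusted p = 0.00698) and Krt18 (1.73 ± 0.76, adjusted p = 0.0406) were the luminal keratins that were higher beside Krt23.

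PyMT tumours had more of the luminal pair than FVB glands and no call for the basal pair. Of 36 keratins, 5 (13.9%) were higher, against 22.5% of all genes, and 3 (8.33%) lower, against 25%. With the spread taken from these groups alone, 13 keratins and 10419 of 22016 genes were called, against 8 keratins here. Krt8 had 16.40, 15.10, 15.45, 15.94 and 15.46 in PyMT tumours, against 12.87, 12.63, 13.80 and 12.73 in FVB glands (difference 2.66 ± 1.04, adjusted p = 0.0258). Krt18 had 16.24, 14.80, 15.23, 16.02 and 15 in PyMT tumours, against 13.29, 12.86, 13.65 and 13.14 in FVB glands (difference 2.22 ± 0.88, adjusted p = 0.0278). No PyMT tumour reached down to a gland for either gene. Krt14 had 12.44, 10.79, 11.56, 11.10 and 13.12 in PyMT tumours and 10.64, 10.40, 11.07 and 10.50 in FVB glands, which overlapped, and was not called. The remaining higher keratins were Krt16 (difference 4.81 ± 1.24), Krt23 (2.52 ± 0.73) and Krt9 (2.23 ± 0.51), a keratin of palm and sole skin.

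KPB-Primary tumours carried more basal keratin mRNA than FVB glands, with all 7 basal keratins called higher. Overall 18 of 36 keratins were higher, against 34% of all genes, and 3 (8.33%) were lower, against 25%. The median keratin difference was 2, against 0.23 for all genes. Krt6a had 7.34, 10.21 and 16.71 (lowest, median, highest of 24) in KPB-Primary tumours, all above the 1.88, 1.25, 6.04 and 2.48 of FVB glands (difference 8.0 ± 1.09, adjusted p = 5.62e-11). Krt5 had 9.12, 14.82 and 17.39 in KPB-Primary tumours, a range that spans the FVB values of 11.11, 10.95, 11.78 and 11.15 (difference 2.8 ± 1.22, adjusted p = 0.0387). Krt15, a keratin of basal and hair follicle stem cells, had 5.51, 10.68 and 15.90 in KPB-Primary tumours, against 5.90, 5.67, 10.16 and 8.07 in FVB glands (difference 3.26 ± 0.96, adjusted p = 0.00211). Single tumours were thus below the glands although the mean was above.

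Root sheath keratins were part of the KPB-Primary difference, with 4 of 7 higher. Krt71, a type II keratin of the inner root sheath, had 3.83, 7.97 and 10.96 in KPB-Primary tumours, all above the FVB values of 3.15, 3.38, 3.72 and 2.95 (difference 4.56 ± 0.84, adjusted p = 8.7e-07). Krt75, of the companion layer of the hair follicle, had 2.55, 6.38 and 13.19 in KPB-Primary tumours, against 0, 0, 5.10 and 1.32 in FVB glands (difference 5.28 ± 0.91, adjusted p = 1.27e-07). Hair follicle markers (Tchh, Hoxc13, Foxn1, Msx2 and Padi3) had a mean of 3.89, 6.3 and 13.3 in KPB-Primary tumours, against 3.88, 4.15 and 5.09 in FVB glands. Their part in these keratin values was not tested. Without KPB-Primary tumour 8, whose hair shaft keratins stood apart, 17 keratins were higher and 3 lower.

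Krt20, Krt36 and Krt222 were the lower keratins in PyMT and in KPB-Primary tumours, and Krt20, Krt36, Krt77 and Krt222 those in C3-TAG. The 3 comparisons share the FVB glands, so they are not separate evidence. Krt36 had 0, 0 and 4.19 (lowest, median, highest) in C3-TAG tumours, 0, 0.86, 0, 0 and 1.22 in PyMT tumours, and 0, 1.10 and 15.28 in KPB-Primary tumours, against 7.81, 7.27, 7.16 and 6.15 in FVB glands. The fitted differences were -6.24 ± 0.89, -6.68 ± 1.02 and -5.3 ± 0.82 in that order of tumours, with adjusted p of 1.99e-10, 4.89e-09 and 4.88e-09. Krt222 had 3.26, 4.29 and 5.15 in C3-TAG tumours and 0.85, 3.06, 3.20, 1.91 and 2.32 in PyMT tumours, against 7.68, 7.19, 7.72 and 7.07 in FVB glands. No tumour of either model overlapped the glands for Krt222.

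In p53-2225L tumours 9 of 36 keratins were higher than in BALB/c glands, against 23.7% of all genes, and 5 (13.9%) were lower, against 31.4%. The higher count was near background. Krt23 had 13.07, 13.58, 13.13, 13.29 and 12.93 in p53-2225L tumours, against 5.63, 8.22, 7.65, 8.74 and 8.43 in BALB/c glands (difference 5.47 ± 0.68, adjusted p = 1.26e-12). Krt79, a keratin of the hair canal and sebaceous duct, had 12.61, 11.66, 12.76, 13.11 and 13.42 in p53-2225L tumours, against 5.25, 7.34, 7.76, 8.94 and 7.42 in BALB/c glands (difference 5.37 ± 0.92, adjusted p = 1.29e-07). Both gaps were wide relative to the spread within either group. Krt14 and Krt17 were also higher (differences 2.69 ± 1.2 and 2.86 ± 1.14, adjusted p = 0.0472 and 0.0252). Krt5 was not called at 14.70, 15.25, 14.81, 14.09 and 14.54 in p53-2225L tumours and 9.39, 12.31, 12.61, 12.83 and 12.56 in BALB/c glands, although the ranges did not overlap. The spread shared by all fitted groups took in Krt5 SDs between 0.13 and 5.96, against 0.42 in these tumours and 1.44 in the glands. Without BALB/c gland 1, 6 keratins were higher and 6 lower.

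p53-2336R tumours had the basal keratin Krt5 and the simple keratin Krt23 higher and luminal Krt7 and Krt19 lower than BALB/c glands. Of 36 keratins 8 (22.2%) were higher, against 21.6% of all genes, and 9 (25%) lower, against 34.8%. The higher count was near background and the lower count below it. Krt5 had 15.15, 16.18 and 16.50 (lowest, median, highest of 8) in p53-2336R tumours, against 9.39, 12.31, 12.61, 12.83 and 12.56 in BALB/c glands (difference 4.11 ± 1.28, adjusted p = 0.00377). Krt19 had 3.19, 6.02 and 9.66 in p53-2336R tumours, against 12.17, 14.24, 14.66, 14.49 and 14.56 in BALB/c glands (difference -7.66 ± 1.37, adjusted p = 3.37e-07). Krt7 had 4.56, 6.82 and 10.87 in p53-2336R tumours, against 10.55, 12.73, 12.70, 11.95 and 12.31 in BALB/c glands (difference -4.61 ± 1.03, adjusted p = 4.37e-05). Krt5 and Krt19 did not overlap between the groups, and Krt7 overlapped only at BALB/c gland 1. Krt23 averaged 12.18 in p53-2336R tumours and 7.73 in BALB/c glands, without overlap (difference 4.45 ± 0.62, limma adjusted p = 9.14e-11). The median of Krt14 was 11.35 over the 11 untreated p53-2336R tumours of both times, against 11.74 in BALB/c glands. Root sheath Krt71 (difference 4.92 ± 0.89) and Krt28 (4.82 ± 0.77) were higher, with 8.54, 9.10 and 10.24 and 7.32, 7.72 and 8.02 in p53-2336R tumours, against 3.26, 4.13, 5.03, 4.43 and 4.51 and 0, 4.68, 2.03, 4.59 and 3.23 in BALB/c glands.

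T11 tumours at the end stage had no keratin higher than BALB/c glands and 24 of 36 (66.7%) lower. Of all genes, 18.3% were higher and 36.1% lower. The median keratin difference was -3.06, against -0.35 for all genes. Among 7 basal keratins 5 were lower, and among 6 simple keratins 5. Krt5 had 1.38, 5.22, 0, 0 and 5.51 in T11 tumours, against 9.39, 12.31, 12.61, 12.83 and 12.56 in BALB/c glands (difference -9.52 ± 1.42, adjusted p = 1.99e-09). Krt19 had 2.88, 8.47, 0.83, 3.94 and 8.01 in T11 tumours, against 12.17, 14.24, 14.66, 14.49 and 14.56 in BALB/c glands (difference -9.19 ± 1.52, adjusted p = 4.46e-08). Neither gene overlapped between the groups. The luminal pair kept more of its signal: Krt18 had 12, 12.91, 12.04, 10.14 and 10.91 in T11 tumours, against 12.74, 14.08, 14.32, 13.65 and 13.95 in BALB/c glands (difference -2.15 ± 0.83, adjusted p = 0.0205), and Krt8 fell by 3.28 ± 0.98 (adjusted p = 0.00258).

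Between BALB/c and FVB glands limma called 0 of 36, with 1 at an unadjusted p under 0.05, against 5.15% of all genes called and 17.5% at that unadjusted p. Genes that anchor keratin filaments were counted from fixed lists of 12 desmosome and 7 hemidesmosome genes. Of the desmosome genes, 10 were higher and none lower in C3-TAG, 10 higher and 1 lower in PyMT and in KPB-Primary, and 2 higher and 9 lower in T11 tumours. Of the hemidesmosome genes, 5 were higher and 1 lower in C3-TAG, 4 higher and none lower in PyMT, 6 higher and 1 lower in KPB-Primary, and 1 higher and 5 lower in T11 tumours. Of all genes, 34.1% were higher in C3-TAG, 22.5% in PyMT and 34% in KPB-Primary tumours, and 36.1% were lower in T11 tumours. Desmoglein Dsg3 had a mean of 11.73 in C3-TAG tumours, against 1.26 in FVB glands (difference 10.48 ± 0.87, adjusted p = 3.92e-24). Desmoplakin Dsp, which ties keratin to the desmosome, had a mean of 4.75 in T11 tumours, against 11.39 in BALB/c glands.

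ILC tumours were set against PyMT tumours, a transgenic model whose labels name no Cdh1 or Pik3ca allele. Of 36 keratins 8 (22.2%) were higher in ILC tumours, against 23.1% of all genes, and 1 (2.78%) was lower, against 22.9%. With the spread taken from these groups alone 21 keratins were called, 17 higher and 4 lower, with 13464 of 22016 genes called. The labels give 2 of the 10 ILC tumours the same code, and averaging them left 8 higher and 1 lower. Stress and basal keratins led: Krt6a had 9.87, 11.10 and 12.14 (lowest, median, highest of 10) in ILC tumours, against 4.46, 3.70, 6.54, 4.62 and 6.69 in PyMT tumours (difference 5.94 ± 1.11, adjusted p = 1.73e-06). Krt14 had 14, 15 and 15.47 in ILC tumours, against 12.44, 10.79, 11.56, 11.10 and 13.12 in PyMT tumours (difference 3.12 ± 1.04, adjusted p = 0.00858). Neither gene overlapped between the models. Krt20, best known from intestine and bladder, had 4.40, 5.67 and 6.54 in ILC tumours, against 0.85, 2.56, 2.17, 1.25 and 1.87 in PyMT tumours (difference 3.83 ± 0.73, adjusted p = 2.7e-06). Krt8 and Krt18 were not called, with 14.41, 14.98 and 15.52 and 13.36, 14.07 and 14.84 in ILC tumours, against medians of 15.46 and 15.23 in PyMT tumours. Basal or myoepithelial markers were 10.84, 11.21 and 11.53 in ILC tumours and 7.99, 9.04 and 9.71 in PyMT tumours, and adipocyte markers 9.81 to 12.91 and 2.28 to 7.48. Their part was not tested.

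KPB25L tumours lacked nearly all basal keratin mRNA that KPB-Primary tumours carried. At the end stage 20 of 36 keratins (55.6%) were lower in KPB25L than in KPB-Primary tumours, against 43.1% of all genes, and 8 (22.2%) were higher, against 18.5%. The median keratin difference was -2.14, against -0.39 for all genes. Krt5 had 0, 0.53 and 3.46 (lowest, median, highest of 6) in KPB25L tumours, against 9.12, 14.82 and 17.39 in KPB-Primary tumours (difference -13.03 ± 1.03, adjusted p = 9.72e-26). Krt15 had 0, 0 and 0.83 in KPB25L tumours, against 5.51, 10.68 and 15.90 in KPB-Primary tumours (difference -10.57 ± 0.82, adjusted p = 1.44e-26). Krt6a had 0, 0 and 1.94 in KPB25L tumours, against 7.34, 10.21 and 16.71 in KPB-Primary tumours (difference -10.36 ± 0.92, adjusted p = 1.99e-21). No KPB25L tumour reached the KPB-Primary range for these 3. Krt14 and Krt17 were also lower (differences -4.35 ± 0.86 and -2.62 ± 0.82) but stayed measurable, at 7.45, 9.87 and 11.35 and 7.07, 9.48 and 13.48 in KPB25L tumours. Krt16, the seventh basal keratin, was not called, with 6.79, 7.33 and 9.77 in KPB25L and 3.24, 6.16 and 16.39 in KPB-Primary tumours.

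Of the 6 simple keratins, 4 were higher in KPB25L tumours, and Krt19 and Krt23 were lower. Krt23 had 2.86, 4.99 and 5.81 in KPB25L tumours, against 8.08, 11.55 and 14.57 in KPB-Primary tumours, with no overlap (difference -6.63 ± 0.49, adjusted p = 6.42e-28), and the Krt19 difference was -5.34. Krt8 had 15.61, 16.19 and 16.45 in KPB25L tumours, against 9.37, 14.02 and 16.86 in KPB-Primary tumours (difference 2.23 ± 0.71, adjusted p = 0.004). Krt20 had 4.84, 7.25 and 8.40 in KPB25L tumours, against 0, 2.63 and 6.04 in KPB-Primary tumours (difference 4.32 ± 0.61, adjusted p = 1.62e-10). The KPB25L values lay inside the KPB-Primary range for Krt8 and in part above it for Krt20. Krt25 had 6.87, 7.95 and 8.68 in KPB25L tumours, against 0, 1.20 and 10.85 in KPB-Primary tumours (difference 5.59 ± 0.87, adjusted p = 7.16e-09). Krt26 had 5.13, 6.06 and 6.65 in KPB25L tumours, against 0, 0 and 9.06 in KPB-Primary tumours (difference 4.94 ± 0.63, adjusted p = 2.41e-12). For both genes the highest single values came from KPB-Primary tumours. The hemidesmosome collagen Col17a1 averaged 3.70 in KPB25L tumours and 13.94 in KPB-Primary tumours (difference -10.25 ± 0.57, adjusted p = 1.72e-41), and 4 of 7 hemidesmosome genes were lower and 1 higher, against 43.1% and 18.5% of all genes. Without KPB-Primary tumour 8, 20 keratins were lower and 8 higher. KPB25L is 1 transplanted line, and its mice share that origin.

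T11 tumours had less keratin mRNA than KPB25L tumours. At 3 days 12 of 36 keratins (33.3%) were lower in untreated T11 than in untreated KPB25L tumours, against 17.1% of all genes, and 1 (2.78%) was higher, against 9.69%. At the end stage 15 (41.7%) were lower, against 18% of all genes, and 1 (2.78%) higher, against 16.4%. The median keratin difference was -1.07 at 3 days and -0.7 at the end, against -0.14 and 0.01 for all genes. The strain labelled for the derivatives of T11 differs from that of KPB25L, so line and strain cannot be told apart.

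Krt7, Krt8 and Krt18 separated the lines. Krt8 had 9.16, 9.20, 10.21 and 8.48 in 3-day T11 tumours, against 16.01, 15.97, 16.02, 16.08 and 15.91 in KPB25L tumours (difference -6.74 ± 1.04, adjusted p = 2.32e-08). Krt18 had 10.87, 10.97, 11.25 and 10.41 in T11 tumours, against 15.02, 15.31, 15.70, 15.79 and 15.47 in KPB25L tumours (difference -4.58 ± 0.88, adjusted p = 7.45e-06). Krt7 had 2.60, 3.68, 7.79 and 7.27 in T11 tumours, against 12.45, 12.82, 13.66, 13.84 and 13.33 in KPB25L tumours (difference -7.89 ± 1.21, adjusted p = 2.04e-08). The groups did not overlap for any of the 3, and T11 tumours varied more than KPB25L tumours in Krt7. Krt19 had 5.10, 2.31, 9.87 and 7.70 in T11 tumours and 4.85, 3.07, 6.03, 6.11 and 3.52 in KPB25L tumours, which overlapped, and was not called. Both lines were thus low in Krt19 beside the 12.17 to 14.66 of BALB/c glands.

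Krt14 and Krt17 differed in the same direction. Krt14 had 3.18, 0, 5.02 and 4.44 in 3-day T11 tumours, against 10.72, 9.30, 8.55, 9.28 and 12.08 in KPB25L tumours (difference -6.83 ± 1.27, adjusted p = 4.09e-06). Krt17 had 0, 0, 4.63 and 1.82 in T11 tumours, against 10.87, 8.08, 7.50, 8.84 and 11.26 in KPB25L tumours (difference -7.69 ± 1.21, adjusted p = 4.03e-08). Krt5, the usual partner of Krt14, was not called: it had 2.01, 0, 6.27 and 0 in T11 tumours and 2.40, 1.23, 1.54, 3.17 and 7.55 in KPB25L tumours. KPB25L tumours thus held Krt14 and Krt17 with little Krt5. At the end stage the differences were -9.27 ± 1.09 for Krt7, -8.64 ± 1.09 for Krt17, -7.39 ± 1.15 for Krt14 and -5.64 ± 0.94 for Krt8.

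Gland markers were high in 3 of the 4 tumours with the most Krt19 among untreated 3-day and end-stage T11 tumours. The untreated 7-day T11 tumours are left out of this ranking. The 3-day T11 tumour 3, with a Krt19 of 9.87, and the end-stage T11 tumours 2 and 5, with 8.47 and 8.01, also had the highest luminal marker means, 6.69, 6.27 and 6.32, against 3.78 to 4.44 in the other untreated T11 tumours of these times. Their adipocyte marker means were 8.13, 7.36 and 8.71, against 3.19 to 5.50. The 3-day T11 tumour 4, with a Krt19 of 7.70, had the lower marker means of 4.44 and 3.19. The part of gland tissue in these values was not tested. Krt5 exceeded 5 in 17 and Krt14 in 16 of the 74 T11-line samples.

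The keratin higher in T11 was Krt13, at 3.34, 2.92, 3.06 and 2.96 in 3-day T11 tumours, against 0, 0.74, 0, 0 and 1.12 in KPB25L tumours (difference 2.7 ± 0.83, adjusted p = 0.00772). These levels are low, and with a pseudocount of 16 the difference was 0.52 (adjusted p = 0.307). Desmosome genes were lower in T11 with 8 of 12 at 3 days and 9 at the end, against 17.1% and 18% of all genes. None was higher, against 9.69% and 16.4%. Of the 7 hemidesmosome genes, 3 were lower and none higher at 3 days, and 3 were lower and 1 higher at the end. Dsp averaged 4.57 in T11 and 11.30 in KPB25L tumours at 3 days (difference -6.73 ± 0.83, adjusted p = 4.97e-12). The non-keratin filament genes nestin and vimentin were higher: Nes averaged 15.21 in T11 and 11.31 in KPB25L tumours (difference 3.90 ± 0.44, adjusted p = 1.12e-13), and Vim 17.63 and 15.78 (difference 1.85 ± 0.32, adjusted p = 4.66e-07).

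**Figure D3:**
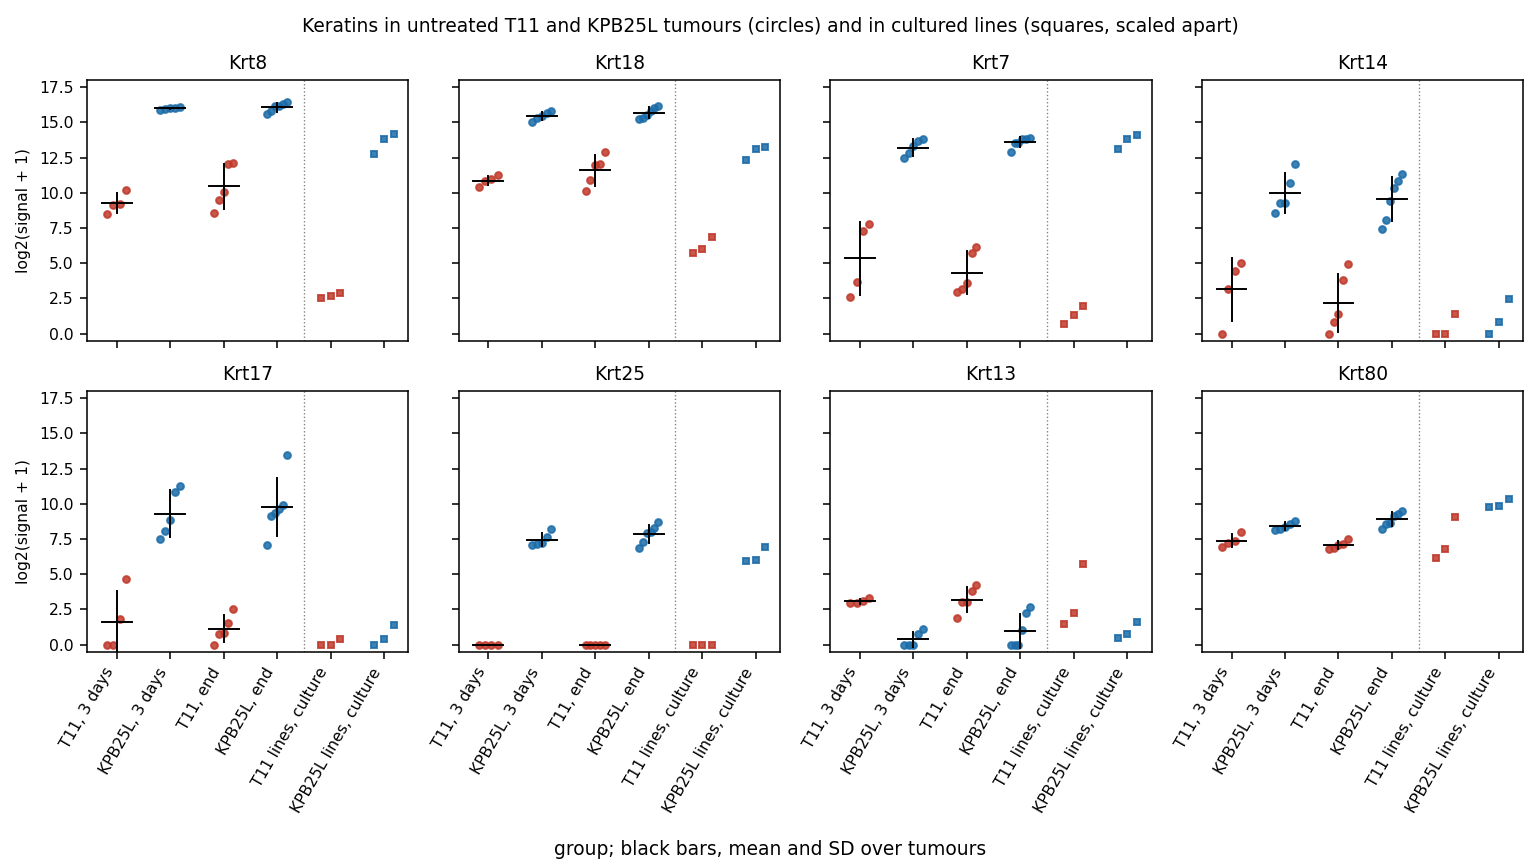
Log2(signal + 1) of 8 keratins in untreated T11 and KPB25L tumours at the earliest time and at the end stage, followed by the cultured lines. At each time, and again for the cultures, T11 stands left of KPB25L. Circles are tumours and squares are cultured lines, whose table was scaled separately. Krt8, Krt18 and Krt7 separate the lines, and Krt25 is near 0 in T11 lines. Krt13 is low in tumours of both and reaches 5.75 in the T11 Apobec culture.

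Krt25, Krt26 and Krt27 are neighbouring type I genes of the inner root sheath, and KPB25L tumours carried them without most of the other root sheath keratins. In untreated 3-day KPB25L tumours Krt25 had 7.15, 8.20, 7.62, 7.22 and 7.05, Krt26 5.95, 4.58, 5.99, 5.56 and 4.61, and Krt27 5.47, 5.88, 7.46, 6.49 and 5.86. All 3 were listed at 0 in all 3-day and end-stage untreated T11 tumours. Over 50 KPB25L-line samples outside the libraries that stood apart, Krt25 exceeded 5 in 36, Krt27 in 32 and Krt26 in 21, and each was at 0 in 1. In the same 50 samples the type II root sheath keratins were mostly absent: Krt71 was at 0 in 34, Krt72 in 45, Krt73 in 40, Krt74 in 49 and Krt75 in 43. Krt28, the fourth type I gene, was at 0 in 21 and exceeded 5 in 1.

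Hair follicle markers stayed low in these 50 samples, with a mean of 2.62, 4.20 and 5.46 (lowest, median, highest). Trichohyalin Tchh, a defining gene of the inner root sheath, had 1.62, 3.19 and 7.14, against 3.79, 5.9 and 6.23 in the 9 normal glands. Hoxc13, a hair shaft regulator, was at 0 in 44 of the 50 samples and in 7 of 9 glands. Krt76, a suprabasal keratin of the palate, exceeded 5 in 33 of the 50 samples and was at 0 in none. It was at 0 in 60 of 74 T11-line samples, and in all 4 FVB glands. Of the 74 T11-line samples, Krt25 was at 0 in 65, Krt26 in 73 and Krt27 in 70, and none exceeded 5 for any of them.

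p53-9263-3 tumours gave another picture, with both types of root sheath keratin present. At 3 days Krt25 had 12.81, 11.02, 12.37 and 10.71, Krt27 13.54, 11.11, 13.37 and 11.09, Krt71 12.67, 9.98, 12.38 and 9.90, and Krt73 14.50, 13.20, 14.04 and 12.79. The single end-stage tumour had 10.00 for Krt25, 11.87 for Krt27, 11.33 for Krt71 and 12.34 for Krt73. Tchh was 13.09 to 14.49 in the 3-day tumours, while Hoxc13 was 2.57 to 4.54 and the shaft keratin Krt81 3.64 to 4.41. The cornified-layer gene Lor had 11.67 to 12.93. Other shaft keratins were measurable at 3 days, with 6.85, 7.06, 6.84 and 6.66 for Krt35, 5.72, 6.94, 5.34 and 6.53 for Krt32, and 5.24, 6.25, 5.21 and 5.51 for Krt36. The end-stage tumour had 8.42, 8.22 and 8.14 for these genes.

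**Figure D4:**
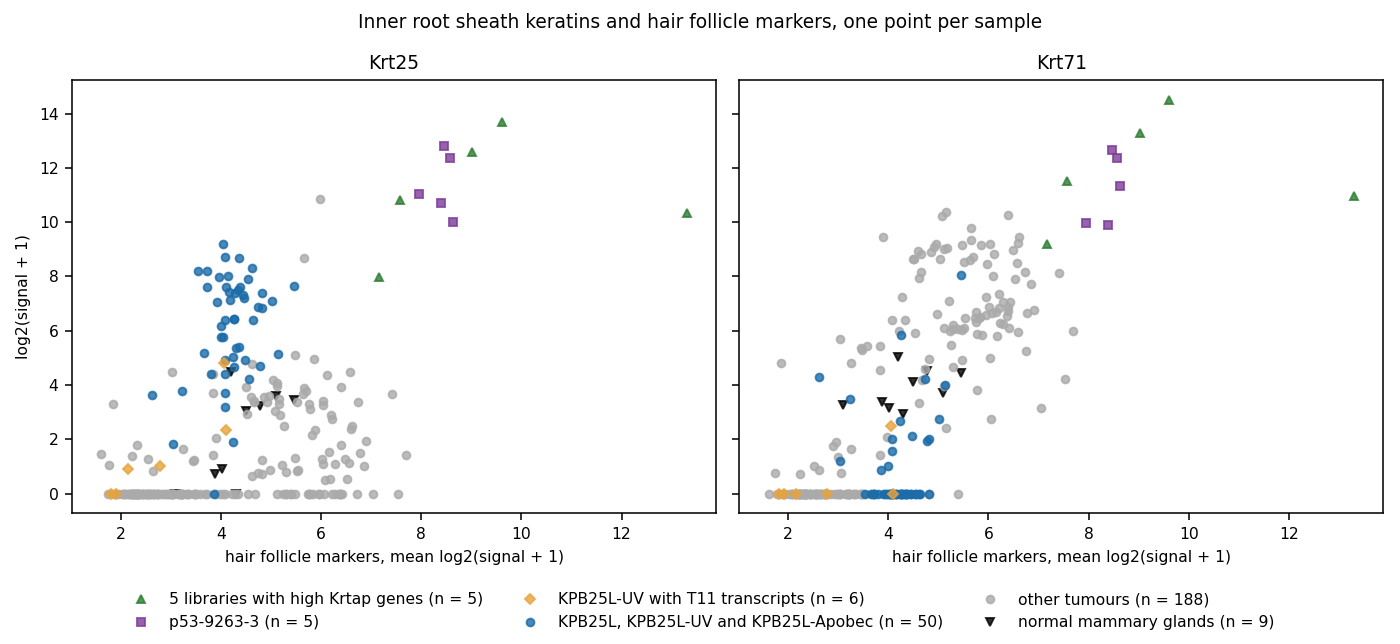
Krt25 (left) and Krt71 (right) against the mean of 5 hair follicle markers, all as log2(signal + 1), 1 point per sample. KPB25L-line samples (n = 50) hold Krt25 at marker means of 2.62 to 5.46 with Krt71 mostly at 0, while p53-9263-3 tumours (n = 5) and the libraries with high Krtap (n = 5) are high in both.

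Hair shaft keratins were highest in 1 tumour. KPB-Primary tumour 8 had the highest value of 22 keratins, among them 13 of the 14 hair shaft genes, with 16.68 for Krt81, 16 for Krt86, 15.83 for Krt83 and 15.62 for Krt33a. It also had 14.83 for Tchh and 12.21 for Hoxc13, against 1.68, 5.24 and 9.39 and 0, 5.51 and 10.37 (lowest, median, highest) in the other 23 KPB-Primary tumours. Hair shaft genes took 39.6% of its keratin signal per kilobase, against a median of 0.0594% over all 24. The fourteenth, Krt40, was highest in treated KPB25L-UV 7-day tumour 3, at 6.02.

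The other 4 libraries with high Krtap had root sheath and shaft keratins together. Treated KPB25L-UV 7-day tumour 3 had 13.69 for Krt25, 14.50 for Krt71 and 12.05 for Krt81, and treated KPB25L-UV 3-day tumour 2 had 12.60, 13.30 and 10.59 for the same genes. KPB-1A 3-day tumour 2 had 10.83, 11.52 and 9.07, beside 1.05, 7.11 and 0 in KPB-1A 3-day tumour 1. p53-2224L 3-day tumour 3 had 7.99, 9.19 and 8.59. Hoxc13 in these 4 was 7.84, 6.99, 5.59 and 4.89. The part of hair follicle tissue taken along with the tumour was not tested.

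p53-2336R tumours kept Krt5 within narrow limits and varied in luminal keratins at the end stage. Over its 21 tumours Krt5 ran between 15.15 and 16.50 (SD 0.37), and Trp63, a basal cell regulator, between 12.87 and 13.94. Krt8 ran between 11.79 and 12.46 (SD 0.21) in the 8 tumours of 3 days and between 10.08 and 17.02 (SD 2.36) in the 13 of the end stage. Without treated end-stage tumours 1 and 5 it ran between 10.08 and 14.78 (SD 1.81). The spread at the end was wide with or without those 2 tumours.

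Treated end-stage tumours 1 and 5 had 16.53 and 17.02 for Krt8, 16.48 and 16.70 for Krt19 and 14.31 and 14.35 for Krt7. For Krt19 the untreated end-stage tumours had 3.19, 6.02 and 9.66, and for Krt7 4.56, 6.82 and 10.87. Luminal marker means were 12.16 and 12.22 in these 2 tumours and 9.38 to 10.30 in the other p53-2336R tumours, and Krt6a was 13.50 and 13.16. Krt4 had 11.62, 0, 2.53, 3.55 and 11.84 in treated end-stage tumours, against 0, 2.23 and 4.11 in untreated ones (difference 4.05 ± 0.90, adjusted p = 0.00962), a difference carried by the same 2 tumours. Krt79 ran between 8.57 and 9.68 at 3 days and between 5.18 and 12.87 at the end.

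**Figure D5:**
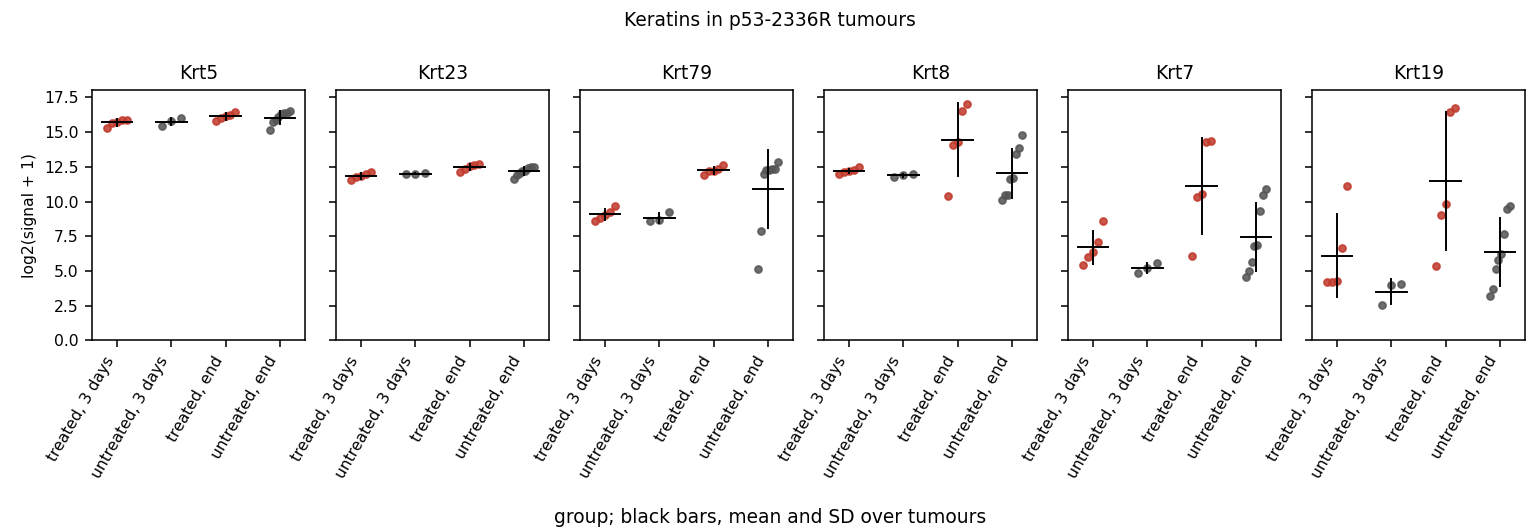
Log2(signal + 1) of Krt5, Krt23, Krt79, Krt8, Krt7 and Krt19 in p53-2336R tumours, treated left of untreated at 3 days and at the end stage, 1 point per tumour. Krt5 stays between 15.15 and 16.50, and 2 treated end-stage tumours lie above all others for Krt8, Krt7 and Krt19.

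Checkpoint therapy was compared within model and averaged over models with equal weight. The untreated 3-day tumours are headed as pretreatment, so they may have been taken earlier than the treated ones. Therapy and time of sampling then cannot be told apart in any comparison of treated and untreated 3-day tumours below. In the 4 sensitive models (T11-UV, T11-Apobec, KPB25L and KPB25L-UV) at 3 days 4 of 36 keratins (11.1%) were higher in treated than in untreated tumours, against 4.6% of all genes, and none was lower, against 4.56%. Krt5 averaged 6.28 in 15 treated and 3.49 in 17 untreated tumours (difference 2.79 ± 0.81, adjusted p = 0.021). Krt6a averaged 3.33 and 1.02 (2.31 ± 0.73, adjusted p = 0.032), Krt15 4.05 and 1.93 (2.12 ± 0.64, adjusted p = 0.0259), and Krt78 3.43 and 2.09 (1.35 ± 0.47, adjusted p = 0.0479). With flow cell as a term none of the 4 was called, Krt5 having a difference of 1.25 (adjusted p = 0.444). None of the 4 was called without untreated KPB25L-UV tumour 4, without treated T11-UV tumour 1, or without treated T11-UV tumour 3.

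The Krt5 rise was uneven. In KPB25L it had 1.86, 10.88, 2.46, 9.30 and 7.75 in treated tumours, against 2.40, 1.23, 1.54, 3.17 and 7.55 in untreated ones, and adipocyte markers had 6.54, 11.95, 4.07, 12.23 and 10.30, against 4.61, 6.55, 3.55, 3.94 and 6.81. In KPB25L-UV Krt5 had 8.75, 12.36 and 11.65 in treated tumours, against 7.22, 4.80, 9.23 and 1.02. In T11-UV it had 3.86, 4.54 and 3.15 in treated tumours, against 1.81, 2.94, 0.92 and 0.85, and in T11-Apobec 4.23, 4.89, 4.33 and 2.11, against 7.50, 0, 0 and 6.85. In T11-UV no treated tumour overlapped an untreated one, and in the other 3 models the arms overlapped. In KPB25L the 3 treated tumours with high Krt5 were the 3 with the highest adipocyte markers, and the part of gland tissue was not tested. Without the libraries of high Krtap, Krt6a (difference 1.73) and Krt78 (1.14) were no longer called.

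Krt19 in KPB25L at 3 days followed the same tumours: 3.99, 12.89, 4.33, 13.63 and 11.69 in treated tumours, against 4.85, 3.07, 6.03, 6.11 and 3.52 in untreated ones (difference 4.59 ± 1.52, adjusted p = 0.0397). Over all 19 single-model contrasts 4 keratin calls were made, with 3.29% of all gene tests called. The others were Krt4 in p53-2336R at the end, and Krt222 and Krt71 in KPB25L-UV at 7 days (differences 2.32 ± 0.63 and 3.16 ± 1.01, adjusted p = 0.00734 and 0.0247). Krt222 had 3.38, 6.32, 4.53, 8.61, 2.43 and 5.18 in treated and 3.75, 3.36, 2.29 and 1.63 in untreated tumours, with overlap. Without the 4 of these libraries that carried T11 transcripts its difference was 2.61 and still called, and without untreated tumour 4 it was 1.94 and not called. Krt71 had 0, 5.84, 14.50, 4.28, 0 and 0 in treated and 1.03, 2.76, 0 and 0 in untreated tumours. It rests on tumour 3, of high Krtap, without which the difference was 1.08 and was not called. It was also not called without treated tumour 2, untreated tumour 3 or untreated tumour 4.

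At 7 days no keratin was higher in treated sensitive tumours, against 12.8% of all genes, and 1 (2.78%) was lower, against 17.3%. Krt80, a type II keratin of many epithelia, averaged 6.09 in 18 treated and 7.18 in 15 untreated tumours (difference -1.09 ± 0.40, adjusted p = 0.0276). In T11-Apobec it had 3.84, 7.03, 6.50 and 5.29 in treated tumours, against 7.63, 7.42, 7.40 and 7.74 in untreated ones, with no overlap. The arms overlapped in T11-UV, KPB25L and KPB25L-UV. Without the KPB25L-UV libraries that carried T11 transcripts 3 keratins were lower, and with flow cell as a term 4 were. Leaving out 1 sample ended the Krt80 call for treated T11-UV tumours 1 and 3, T11-Apobec tumour 1 and KPB25L tumour 1, and for untreated T11-UV tumours 2 and 4, KPB25L tumours 1 and 3 and KPB25L-UV tumour 1.

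No keratin was called by limma in the other therapy comparisons, where 0% of all genes were called. At an unadjusted p under 0.05 there was 1 of 36 keratins in sensitive models at the end (16 treated and 20 untreated), 0 in resistant models at 3 days (14 and 11), 0 in T11 at 7 days (4 and 4) and 8 in resistant models at the end (13 and 18). Of all genes 4.41%, 1.66%, 0.263% and 4.15% had such a p in that order of comparisons. The resistant models are T11, p53-2225L and p53-2336R. The therapy effect in sensitive minus that in resistant models was called for 0 keratins and 0% of all genes at each time, with 4 keratins at an unadjusted p under 0.05 at 3 days, 0 at 7 days and 2 at the end. Of all genes 6.77%, 6.88% and 2.27% had such a p at these times.

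Between the end stage and 3 days in untreated tumours limma called 0 keratins in the T11 lines (1.16% of all genes called), 0 in the KPB25L lines (4.42%) and 0 in the p53 models (0.0863%). At an unadjusted p under 0.05 there were 2 keratins in the T11 lines, against 12.1% of all genes, 6 in the KPB25L lines, against 17.6%, and 0 in the p53 models, against 6.65%. Krt8 at the end stage was 15.61, 16.19 and 16.45 in KPB25L, beside 15.91 to 16.08 at 3 days.

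Untreated 3-day tumours of 5 sensitive models were set against those of 7 resistant ones, with the model mean as the replicate. C3-TAG, which the table's header calls resistant and the labels give as unknown, was left out. Krt23 averaged 4.33 over sensitive and 11 over resistant models (difference -6.67 ± 1.14, adjusted p = 0.0488), the 1 keratin called, where 0.654% of all genes were. Krt15 averaged 2.5 and 9.47 (adjusted p = 0.0602), and the Krt5 difference was -7.37 (adjusted p = 0.0823). At an unadjusted p under 0.05 there were 13 of 36 keratins and 4442 of 22016 genes. Derivatives of 1 parent line are not independent, and the 5 sensitive models derive from 2 parents. Leaving out each model in turn gave 0 to 9 keratins called, and a pseudocount of 16, no filter or another scaling gave 0 each.

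The 6 cultured lines, 1 library each, kept the contrast between the lines. Krt8 was 2.67, 2.88 and 2.52 in the T11 cultures (Apobec, V5 and validation), against 14.15, 13.83 and 12.73 in the KPB25L cultures (V1_5, Apobec and validation). Krt18 was 5.69, 6.03 and 6.87 in T11 cultures, against 13.23, 13.14 and 12.33 in KPB25L cultures, and Krt7 1.94, 1.32 and 0.67, against 13.12, 14.13 and 13.80. The mean differences were -10.88 for Krt8, -6.7 for Krt18 and -12.37 for Krt7. No test was made, since there is 1 library per line. In each KPB25L culture 7 keratins exceeded 5, while 3, 2 and 2 did in the T11 cultures.

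Krt25 was present in KPB25L cultures at 6.02, 6.90 and 5.92 and Krt26 at 4.18, 3.02 and 3.75. Which cells carry these transcripts in the tumours was not tested. Krt27 was 4.86, 3.70 and 0, and Krt76 was at 0 in all 6 cultures. The basal keratins of KPB25L tumours were nearly lacking in culture: Krt14 was 0.85, 2.46 and 0, and Krt17 1.38, 0 and 0.41. Relative to Krt8 in the same library, Krt14 stood at -13.3, -11.37 and -12.73 in KPB25L cultures, against -9.2, -6.27 and -3.83 (lowest, median, highest) in 14 untreated KPB25L tumours. Krt20 went the other way, at -3.72, -3.26 and -5.08 in cultures, against -13.87, -9.82 and -7.77 in the tumours. The tables were normalised separately, and within-library differences depend little on that scaling where both values are well above 0. Krt14 was near or at 0 in the KPB25L cultures, so its differences there do depend on it. The -12.73 of the validation culture, where Krt14 was 0, is the Krt8 value with its sign changed.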

How the data were processed

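RNA was sequenced as paired 50-base reads from poly(A)-selected libraries, per the labels' protocols. STAR, SAMtools, Picard and Salmon and the genome mm10 are named, per the submitters' processing notes, without versions. Signal on a linear scale is the deposited unit: per the file headers and values, the authors scaled each library to a common upper quartile, separately for tumours (2036.876 to 2050.183) and cultures (997.544 to 999.102), without division by length. From 45724 tumour entries, 39 date-like and 28 repeated ones were left out. The 2 runs of 1 KPB25L mouse were averaged.

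limma 3.58.1 (R 4.3.3) was fitted with a trend to log2(signal + 1), with 1 mean per group of at least 2 samples (252 samples, 51 groups, 201 residual degrees of freedom). Genes had to be above 0 in 4 samples and in the upper 66.7% by mean; the Benjamini-Hochberg method adjusted p over 22016 genes. Groups of 1 library (11) were described only. Levels between genes were divided by transcript length (GENCODE vM21). The fit was tested on simulated data with 200 changed genes. Depth is an estimate that takes the most frequent small value of a library as 1 read. Python 3.11.15 with pandas 2.3.3, numpy 2.4.6 and matplotlib 3.10.9 was used for the rest.

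Named were a panel by class, the 4 hair or root sheath keratins with the highest single value (Krt81, Krt86, Krt83 and Krt33a), and up to 6 called keratins per direction and comparison; keratins outside this were named after their values were seen. Members and lists were chosen with earlier results of these data known. Alternatives were a pseudocount of 16, no filter, median-of-ratios scaling, spread from the compared groups alone, a flow cell term, and leaving out samples or models. Exome libraries (13) were not analysed here.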

Additional observations from a re-analysis of the deposited data

Results flagged for a closer look

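A sample was listed where its gap to the nearest of its group was wide beside the range of the group (Dixon's test, groups of 4 to 10 samples). Krt5, Krt7, Krt8, Krt14, Krt18 and Krt19 gave 252 such tests and 21 flags, and chance flags about 1 in 20 groups. Values are log2 signal, and the group's other samples follow each value.

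BALB/c gland 1 was low in 4 genes: 11.81 for Krt8 (others 13.89 to 14.57), 12.17 for Krt19 (14.24 to 14.66), 9.39 for Krt5 (12.31 to 12.83) and 8.4 for Krt14 (11.57 to 12.06). Its adipocyte marker mean was 13.63, beside 16.37 to 16.84, and its leukocyte marker mean 13.53, beside 11.56 to 12.26. Untreated end-stage KPB25L-UV tumour 2, which carried T11 transcripts, had 7.38 for Krt8 (others 15.62 to 16.54), 11.48 for Krt18 (15.42 to 16.26), 4.92 for Krt7 (13.63 to 14.77) and 3.87 for Krt14 (10.34 to 12.23).

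In KPB25L-Apobec at 3 days, tumour 5 had 17.22 for Krt8 (others 15.69 to 16.01) and 16.36 for Krt18 (15.41 to 15.6). KPB-1A end-stage tumour 1 had 12.72 for Krt8 (14.66 to 15.09) and 13.56 for Krt18 (14.9 to 15.1), and tumour 5 had 14.61 for Krt14 (14 to 14.17). Treated 3-day p53-2336R tumour 5 had 10.99 for Krt14 (11.59 to 11.8).

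The T11 lines gave 7 flags. Krt18 was 10.37 in untreated end-stage T11-UV tumour 4 (8.63 to 8.9) and 11.26 in untreated 7-day T11 tumour 3 (10.84 to 10.91). Krt19 was 5.74 in untreated 7-day T11-Apobec tumour 4 (2.29 to 2.69) and 4.16 in untreated 3-day T11-UV tumour 4 (6.61 to 7.04). Krt7 was 3.71 in treated 7-day T11-Apobec tumour 3 (4.81 to 5.03). Krt5 was 0.75 in treated 3-day T11 tumour 2 and 5.93 in treated end-stage T11 tumour 5, with the others of both groups at 0.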

How the results depend on the processing

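Of 1308 values of single keratins under alternatives, 1200 kept direction and side of the threshold, 107 kept direction without passing, 1 moved and 0 reversed. Of 354 counts 299 stayed within 1.5 times. The cause of the changes below was not tested. For therapy in sensitive models at 3 days, a pseudocount of 16 gave 1 keratin, no filter 2, and spread from the compared groups or a flow cell term 0. At 7 days spread from the compared groups gave 0, a flow cell term 4, and leaving out the KPB25L-UV libraries with T11 transcripts 3. Over single models a pseudocount of 16 gave 7, and leaving out the T11-transcript or the high-Krtap libraries 10 each. Spread from the compared groups gave 13 for PyMT over FVB gland, 21 for ILC over PyMT and 2 for growth of T11 lines. Without a filter there was 1 call for BALB/c over FVB gland and 1 for growth of the p53 models. Leaving out either set of libraries that stood apart gave 1 for growth of KPB25L lines. The class comparison gave 0 under a pseudocount of 16, no filter and median-of-ratios scaling. The culture difference of Krt8 was -9.15 with a pseudocount of 16.

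For the comparisons between models and with glands, single samples were left out only from some small groups, beside KPB-Primary tumour 8. No C3-TAG, ILC, end-stage p53-2336R or end-stage KPB25L tumour was left out of these comparisons. Leaving out samples gave 14 to 16 keratins for C3-TAG, 6 to 8 for PyMT and 17 to 20 for KPB-Primary over FVB gland. It gave 28 for KPB25L over KPB-Primary in the 1 fit run, without KPB-Primary tumour 8. It gave 7 to 9 for ILC over PyMT, 11 to 14 for p53-2225L, 15 to 18 for p53-2336R and 20 to 24 for T11 over BALB/c gland. T11 over KPB25L gave 13 to 15 at 3 days and 15 to 16 at the end. Sensitive models gave 0 to 6 at 3 days and 0 to 3 at 7 days, growth of KPB25L lines 0 to 1, and the class comparison 0 to 9, with 9 only without T11. BALB/c over FVB gland, the other therapy and growth comparisons and the differences between classes gave 0 each, in 5 to 9 fits per comparison.

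Median-of-ratios scaling put the median of all genes at -0.15 in place of -0.39 for KPB25L over KPB-Primary, -0.22 in place of -0.35 for T11 over BALB/c gland, -0.12 in place of -0.24 for p53-2336R and 0.11 in place of 0.23 for KPB-Primary over FVB gland. The flow cell term could not be estimated for growth of T11 lines and was not run for comparisons between models or with glands. No paired analysis was possible because the labels give the samples no replicate numbers.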

Other observations

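Over the 62 group means some keratins varied together, given here as a description, since the groups share parent lines. Pearson correlations were 0.96 for Krt14 with Krt17, 0.94 for Krt6a with Krt6b, 0.93 for Krt23 with Krt79 and for Krt5 with Krt71, and 0.91 for Krt25 with Krt26. The 2 filament pairs were at 0.84, both Krt8 with Krt18 and Krt5 with Krt14.

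Krt74, annotated as a transcribed unitary pseudogene in the mouse, was above 4 in p53-2336R tumours and in no other model. It ran between 4.53 and 5.47 in all 8 tumours of 3 days and between 0 and 5.53 at the end stage.

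Some single p53 tumours had wide gaps within the luminal pair. Krt8 minus Krt18 per kilobase was -8.77 in p53-2151, -6.48 in p53-2245 and -3.55 in p53-T2, but 3.85 in p53-T12. These are groups of 1 library. KPB-Primary tumour 14 had 10.85 for Krt25 and 9.44 for Krt27 with 0.72 for Krt26 and 3.81 for Tchh, unlike the other tumours with high Krt25.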
